A study of Mus musculus with 12 samples.

Results

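Npy and 7 further genes that mark olfactory ensheathing glia or glial progenitors, Fabp7, Frzb, Apod, S100b, Ptn, Sox10 and Matn2, were followed through sorted cells of old mouse brain. They are 8 of the 47643 genes in the count table, and all 8 passed the filter for low counts that 11103 genes passed. The genes were taken by name, and the list was drawn up with the difference between the sorted populations already known, so that their values in that contrast were chosen on the readout and are given as a description, without a test. The question put to them was whether Npy was higher in the RFPpos population alone or together with the other genes of this glial type.

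The samples came from the brains of 5 male p16-3MR mice on a C57BL/6 background, aged 113, 115, 116, 116 and 116 weeks. In p16-3MR mice the p16 promoter drives a fusion of red fluorescent protein (RFP), Renilla luciferase and a truncated viral thymidine kinase, so that RFP stands for activity of a transgenic p16 promoter and not for the p16 transcript itself. From each mouse 2 populations of viable cells were sorted, with low or no RFP (RFPneg) and with high RFP (RFPpos), giving 5 RFPneg and 5 RFPpos samples that pair by mouse. All 10 carry the transgene. The brains were dissociated by enzyme, myelin was removed, and viable nucleated cells were gated by RFP without any marker of cell type, and the sources used here do not say whether the olfactory bulb was in the dissociated tissue.

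Each RFPneg sample held 177287 to 415834 counts on genes, with a median of 248471, and each RFPpos sample 222560 to 289713, with a median of 242798. The unit of level is CPM, a gene's counts as a proportion of its sample's TMM-scaled total. Cdkn2a, the locus that encodes p16, had 2, 0, 0, 2 and 4 counts in the RFPneg samples of mice 1 to 5 and 0 in every RFPpos sample. These few counts do not show the higher level that the label RFPpos would call for, and 0 counts allow up to 3 per sample. The transgene itself was not analysed here. The summed level of 20 microglia genes was 14608 to 22785 CPM in RFPneg and 36042 to 51175 CPM in RFPpos, and the summed level of 20 astrocyte genes was 7382 to 9782 CPM in RFPneg and 2516 to 9342 CPM in RFPpos. In such bulk samples, fewer cells of a type and less RNA per cell cannot be told apart.

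Olfactory ensheathing glia wrap the axons of olfactory sensory neurons from the nasal lining into the olfactory bulb, and they derive from the neural crest, as Schwann cells do. They are known to express the neuropeptide Npy, the brain lipid-binding protein Fabp7, the secreted Wnt antagonist Frzb and the neural crest transcription factor Sox10. None of these genes is exclusive to them. Npy is also a transmitter of inhibitory interneurons, Fabp7 and Ptn are made by astrocytes and radial glia, Apod and S100b by oligodendrocytes and astrocytes, and Sox10 throughout the oligodendrocyte lineage.

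All 8 genes are protein-coding, and none overlaps another gene on its own strand in GENCODE M21 (GRCm38). Npy lies at chr6:49822710-49829507 (+) and Ptn, on the same chromosome, at chr6:36714929-36810220 (-). Fabp7 lies at chr10:57784881-57788450 (+) and S100b at chr10:76253853-76261159 (+). Frzb lies at chr2:80411970-80447625 (-), Apod at chr16:31296192-31314808 (-), Sox10 at chr15:79154908-79165240 (-) and Matn2 at chr15:34306677-34436273 (+). Reads of S100b and Matn2 could meet an annotated gene on the opposite strand, Dip2a and 9430069I07Rik. Of the 6 genes with an entry in the RefSeq promoter table (GRCm38.p6), Npy, Apod and S100b have 250 bases before the start site that lie wholly outside the GENCODE gene. These 3 are shown, Npy as the gene the comparison is about and Apod and S100b as genes it is set against further on. Each runs 5′ to 3′ on the gene's strand and ends just before the start site, and capitals mark CpG dinucleotides.
Npy, chr6:49822460-49822709, strand +: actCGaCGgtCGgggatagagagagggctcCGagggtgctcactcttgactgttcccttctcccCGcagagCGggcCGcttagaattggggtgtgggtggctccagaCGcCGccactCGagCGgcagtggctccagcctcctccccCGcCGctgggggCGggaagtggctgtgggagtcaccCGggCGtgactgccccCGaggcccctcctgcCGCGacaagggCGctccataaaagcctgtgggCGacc
Apod, chr16:31314809-31315058, strand -: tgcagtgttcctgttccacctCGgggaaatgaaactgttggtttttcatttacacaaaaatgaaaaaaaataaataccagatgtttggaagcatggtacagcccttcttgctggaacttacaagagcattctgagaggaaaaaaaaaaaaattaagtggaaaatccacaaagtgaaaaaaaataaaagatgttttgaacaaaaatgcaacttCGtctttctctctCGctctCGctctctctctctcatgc
S100b, chr10:76253586-76253835, strand +: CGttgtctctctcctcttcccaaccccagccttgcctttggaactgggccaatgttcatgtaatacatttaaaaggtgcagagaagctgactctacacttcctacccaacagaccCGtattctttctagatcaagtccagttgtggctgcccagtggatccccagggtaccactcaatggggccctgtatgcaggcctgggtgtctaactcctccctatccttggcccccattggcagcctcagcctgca
The 3 windows differ in base composition. The Npy window has 69.2% G or C and 21 CpG dinucleotides, more than 83.7% of the 32851 windows of that length in the table, whose median is 6. The Apod window has 36.4% G or C and 4 CpG dinucleotides, and the S100b window has 53.6% and 2. Of the motifs searched on both strands, the TATA box TATAAA occurs in none of the 3 windows and in 12.4% of all windows. The SOX-type letters ACAAAG occur once, in the Apod window, beginning 84 bases before the start, and in 16.5% of all windows. The SOX-type letters ACAATG occur in none of the 3 and in 10.7% of all windows. The NFI-type letters TTGGCA occurs once, in the S100b window, beginning 19 bases before the start, and in 12.3% of all windows. A match is a description of letters and not a bound site.

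Between the populations, the level of Npy (log2 fold change 1.61) and that of Frzb (1.45) differed most upwards and that of Sox10 (-1.56) downwards, while the other 5 lay between -1 and 1. As a description, Npy and Frzb meet the rule by which genes were called higher and Sox10 the rule for lower, where called means a Benjamini-Hochberg adjusted p below 0.05 in edgeR's quasi-likelihood fit with mouse as a block and a log2 fold change beyond 1. Over all genes tested, 376 (3.39%) were called higher and 824 (7.42%) were called lower. The list was selected on this contrast, so these calls are no test of the 8 genes and nothing is read from their number. The median log2 fold change was 0.29 over the 8 genes and -0.10 over all genes tested.

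Npy encodes a small secreted peptide that acts on G protein-coupled receptors. In the RFPneg samples of mice 1 to 5 its level was 33.0, 172, 224, 108 and 166 CPM. In the RFPpos samples of the same mice it was 51.2, 478, 509, 469.7 and 699.8 CPM. Npy was higher in RFPpos in each of the 5 mice, and the populations overlapped through mouse 1 alone, whose RFPpos sample lay below 4 of the RFPneg samples. The mean was 141 ± 72.9 CPM in RFPneg and 442 ± 238 CPM in RFPpos (SD, n = 5). The fitted log2 fold change was 1.61 (SE 0.23), a 3.06-fold higher level. Scaled to the microglia genes, the log2 fold change of Npy was 0.38 and did not meet the rule for a call. Within mice the RFPpos sample stood 1.55, 2.77, 2.27, 4.36 and 4.22 times above the RFPneg sample. The pair of mouse 1 rested on 6 counts (95% exact Poisson interval 2.202 to 13.06) and 10 counts (4.795 to 18.39), intervals that cover counting error only and overlap.

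Frzb, which binds Wnt ligands outside the cell, had nearly the same difference. Its level was 71.5, 91.0, 125, 87.8 and 81.4 CPM in the RFPneg samples of mice 1 to 5. It was 41.0, 315, 367, 225 and 384 CPM in the RFPpos samples. Frzb was higher in RFPpos in mice 2 to 5, each of them above every RFPneg sample, and lower in mouse 1. The mean was 91.3 ± 20.2 CPM in RFPneg and 267 ± 141 CPM in RFPpos (SD, n = 5), with a log2 fold change of 1.45 (SE 0.26). Without mouse 1 the log2 fold change was 1.72 for Frzb and 1.68 for Npy. Scaled to the microglia genes, that of Frzb was 0.20 and did not meet the rule for a call.

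**Figure D1:**
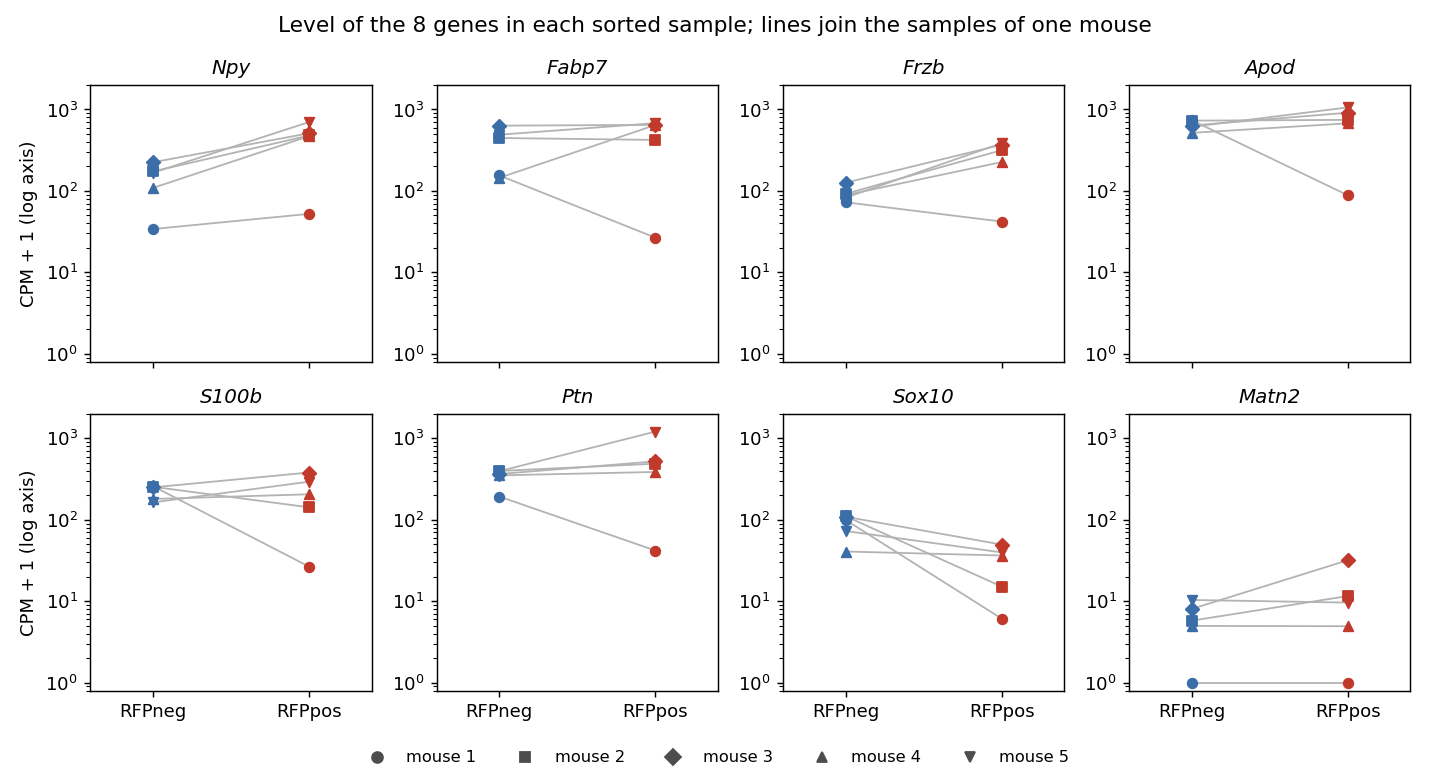
Level of each of the 8 genes, as CPM + 1 on a log axis, in the RFPneg (blue) and RFPpos (red) sample of each mouse, with lines joining the 2 samples of a mouse and symbols standing for mice. Npy rises along all 5 lines, Sox10 falls along all 5, and the RFPpos sample of mouse 1 is the lowest red point in every panel.

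Fabp7, a carrier of fatty acids in radial glia and immature astrocytes, differed little on average. Its level was 154, 445, 631, 144 and 489 CPM in RFPneg and 25.6, 421, 646, 643 and 678 CPM in RFPpos. The largest change in either direction came from mouse 1, at 6.01 times lower in RFPpos, and mouse 4, at 4.48 times higher. The log2 fold change was 0.26 (SE 0.23), and 3 of 5 mice were higher in RFPpos. Without mouse 4 the log2 fold change was -0.21.

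Apod, a lipid-binding lipocalin, had the highest mean CPM of the 8 genes over the 10 samples. Its level was 737, 728, 634, 515 and 611 CPM in RFPneg and 87.1, 744, 912, 675 and 1058 CPM in RFPpos. The RFPneg samples lay close together, and 4 of 5 mice were higher in RFPpos by at most 1.73 times. Mouse 1 was 8.46 times lower there. The log2 fold change was -0.06 (SE 0.21) with all mice and 0.42 without mouse 1.

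S100b, a calcium-binding protein of glia, was at 259, 254, 249.7, 179.6 and 163 CPM in RFPneg and at 25.6, 142, 381, 205 and 294 CPM in RFPpos. It was higher in RFPpos in 3 of 5 mice, and its populations overlapped, with a log2 fold change of -0.20 (SE 0.24). Ptn, a secreted growth factor that binds the receptor Ptprz1, was at 193, 397, 365, 351 and 395 CPM in RFPneg and at 41.0, 489, 522, 387 and 1214 CPM in RFPpos. It was higher in RFPpos in 4 of 5 mice, most in mouse 5, with a log2 fold change of 0.32 (SE 0.22). Without mouse 1 these values were 0.22 for S100b and 0.64 for Ptn, and those of S100b and, as given above, Apod changed sign. Without mouse 5 Ptn was at -0.05.

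Sox10 went the other way. Its level was 99.0, 110.1, 108, 39.9 and 72.0 CPM in RFPneg and 5.12, 14.2, 48.7, 35.5 and 38.9 CPM in RFPpos, lower in RFPpos in each of the 5 mice. The RFPneg sample of mouse 4 lay within the RFPpos range, and no other RFPneg sample did. The log2 fold change was -1.56 (SE 0.41), a 2.94-fold lower level. Sox10 is shared with the oligodendrocyte lineage, and the lists of that lineage moved beside it, with a summed level of 1851 to 4500 CPM in RFPneg and 540 to 881 CPM in RFPpos for 12 oligodendrocyte genes, and of 144 to 528 CPM and 14.2 to 90.7 CPM for the 9 progenitor genes. Their part in the Sox10 difference was not tested. Sox10 no longer met the rule for a call without mouse 2 (log2 fold change -1.28) or with astrocyte scaling (-1.32).

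Matn2, an adaptor protein of the extracellular matrix, was near the limit of the depth. It had 21 counts in all, with 0, 1, 3, 1 and 3 counts in RFPneg and 0, 3, 7, 1 and 2 counts in RFPpos. The log2 fold change of 0.87 had an SE of 1.16, and no difference was detectable at this depth.

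**Figure D2:**
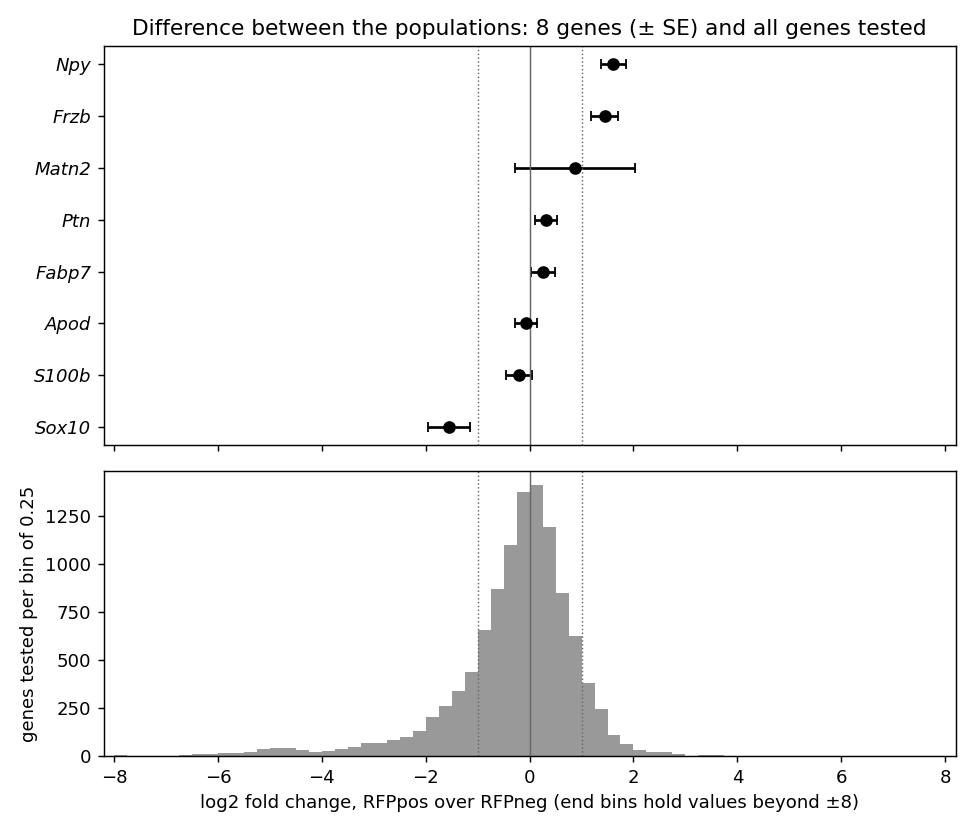
Upper panel, log2 fold change (RFPpos over RFPneg) of the 8 genes with its SE as bars. Lower panel, number of the 11103 tested genes in bins of 0.25, with dotted lines at -1 and 1. Npy (1.61) and Frzb (1.45) lie right of the upper dotted line, Sox10 (-1.56) left of the lower one, and the other 5 between them.

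The RFPpos sample of mouse 1 stood apart. It was the lowest RFPpos sample for all 8 genes, and the median of the other 4 RFPpos samples was between 7.26 (Sox10) and 25.2 (Fabp7) times its level for the 7 genes it held any count of. Its summed astrocyte level was 2516 CPM, against at least 5688 CPM in the other RFPpos samples. Its summed microglia level, 51175 CPM, was the highest of the 10 samples. The part of these lists in the levels of the 8 genes was not tested. The RFPneg sample of mouse 1 was also the lowest of its population for Npy, Frzb, Ptn and Matn2, but not for Apod and S100b, where it was the highest.

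Ratios between 2 genes of 1 sample do not depend on how the samples were scaled, and they set Npy beside its companions. For every 100 Apod counts, the RFPneg samples of mice 1 to 5 held 4.48, 23.7, 35.3, 20.9 and 27.2 Npy counts. The RFPpos samples held 58.8, 64.3, 55.8, 69.6 and 66.1. The 5 RFPpos ratios lay within 1.25 times of each other, while the Npy levels of these samples differed 13.7 times. That spread of levels came from mouse 1, since Npy in RFPpos mice 2 to 5 ran from 469.7 to 699.8 CPM. The ratio of mouse 1 in RFPpos rested on 10 Npy and 17 Apod counts, with a 95% exact binomial interval of 24.07 to 136, so that its place among the others is known only roughly. That interval overlaps those of RFPneg mice 2 to 5. Per 100 S100b counts, Npy ran from 12.8 to 102 in RFPneg and from 134 to 338 in RFPpos, again with no overlap. Per 100 Ptn counts it ran from 17.1 to 61.3 and from 57.7 to 125, and per 100 Fabp7 counts from 21.4 to 75 and from 73.0 to 200, with a small overlap in both. The RFPpos value of 200 per 100 that mouse 1 had against both Fabp7 and S100b rested on 5 counts of each (95% exact binomial interval 62.29 to 745.7). Npy was higher against Apod, S100b and Ptn in 5 of 5 mice and against Fabp7 in 4 of 5.

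Against Frzb the picture was different. The RFPneg samples held 46.2 to 204 Npy counts for every 100 Frzb counts and the RFPpos samples 125 to 209, and the ratio was higher in RFPpos in 2 of 5 mice. Among the 15 pairs that can be formed from Npy, Fabp7, Frzb, Apod, S100b and Ptn, the populations did not overlap in 4, against 13% of the 8130528 pairs of genes with at least 40 CPM on average and a count in every sample. The 15 pairs share genes, and nothing is read from their number. The 4 were Npy to Apod, Npy to S100b, Frzb to Apod (9.70 to 19.7 per 100 in RFPneg, 33.3 to 47.1 in RFPpos) and Frzb to S100b (27.7 to 50 and 96.5 to 222.5). Apod to S100b, in contrast, ran from 254 to 375 per 100 in RFPneg and from 239.5 to 525 in RFPpos. These ratios come from the contrast that chose the genes and carry no test.

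**Figure D3:**
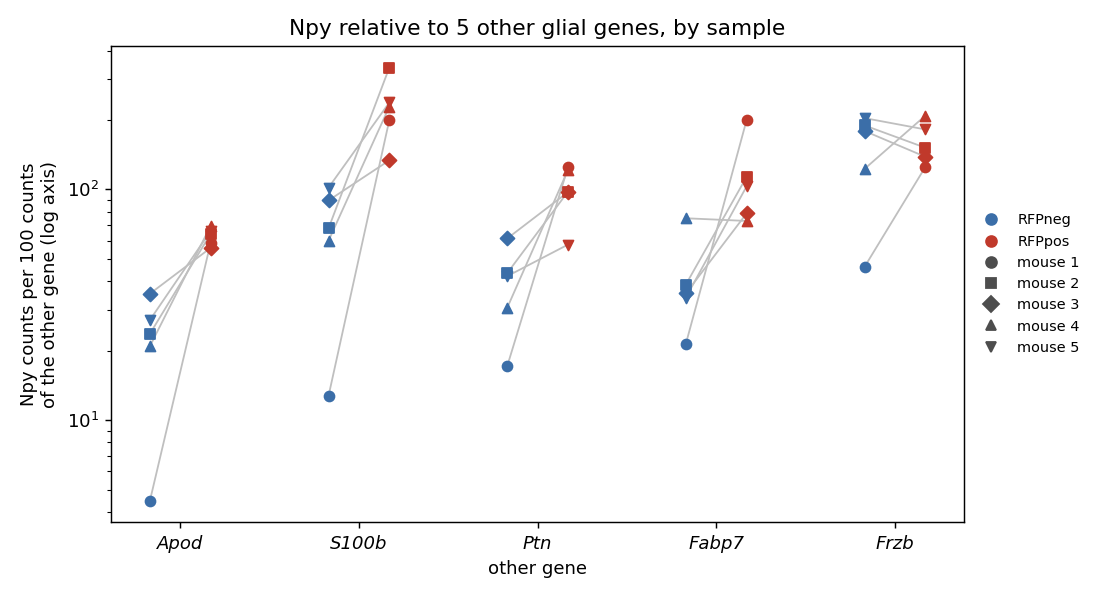
Npy counts per 100 counts of Apod, S100b, Ptn, Fabp7 or Frzb, on a log axis, in the RFPneg (blue) and RFPpos (red) sample of each mouse, joined by lines. The red points for Apod lie together between 55.8 and 69.6, above all blue points, whereas red and blue points for Frzb lie over each other.

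A second list held 16 further genes of ensheathing or Schwann-type glia, of which 12 were tested. Of these, 2 were called higher in RFPpos and 0 lower, with a median log2 fold change of -0.00. For this list and those below, the shares over all genes tested were 3.39% called higher and 7.42% called lower. Both, Prss56 and Mybpc1, passed the filter of 15 counts only through their RFPpos counts. The list was also drawn up with earlier results known, so both calls are a description and no test. The serine protease Prss56 had 2 counts over the RFPneg samples, both from mouse 3, and 1, 9, 4, 3 and 6 counts in RFPpos. In CPM the populations did not overlap, but the nearest samples, 4.71 CPM in RFPneg mouse 3 and 5.12 CPM in RFPpos mouse 1, stood for 2 counts and 1 count. Its log2 fold change was 3.61 (SE 1.22, adjusted p = 0.0289, edgeR's quasi-likelihood test), a call kept in 9 of the 14 alternatives that tested it (adjusted p from 0.00452 to 0.172) and lost with DESeq2, with microglia scaling and without mouse 2, 4 or 5, of which leaving out mouse 2 gave the highest adjusted p. The myosin-binding protein Mybpc1 had 7 and 35 counts, was higher in 4 of 5 mice and had a log2 fold change of 2.50 (SE 0.88, adjusted p = 0.0374, edgeR's quasi-likelihood test). That call was kept in 8 of 15 alternatives (adjusted p from 0.0115 to 0.307) and was lost, among others, with DESeq2 and without mouse 3, 4 or 5, of which leaving out mouse 5 gave the highest adjusted p.

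Serpine2, an inhibitor of serine proteases, was at 422 ± 12.2 CPM in RFPneg and 748 ± 69.7 CPM in RFPpos (SD, n = 5), higher in 5 of 5 mice with no overlap. It passed the adjusted p but not the fold threshold, with a log2 fold change of 0.82 (SE 0.20, adjusted p = 6.77e-04, edgeR's quasi-likelihood test). Scaled to the microglia genes, its log2 fold change was -0.41. In the RFPpos sample of mouse 1 Serpine2 was at 784 CPM, the median of its population, whereas the 8 genes had their lowest RFPpos value there. Foxd3, a neural crest transcription factor, was at 34.96 ± 25.9 and 56.6 ± 36.0 CPM (SD, n = 5) with a log2 fold change of 0.74 (SE 0.45), and Lgi4, which Schwann-type glia secrete onto axons, had a log2 fold change of 0.17 (SE 0.43). Neither passed the test. The defining marker Ngfr had 5 counts over RFPneg and 0 over RFPpos, and Gldn had 0 in all 10 samples, which allows up to 3 counts per sample.

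For Npy to act it must be cut from its precursor, amidated and bound by a receptor. Of 19 genes for ligands of the family, their receptors, and peptide processing and storage, 9 were tested, 0 were called higher in RFPpos and 3 were called lower, with a median log2 fold change of -1.51. The sister ligands Pyy and Ppy and the receptors Npy4r, Npy5r and Npy6r had 0 counts in all 10 samples, with the same allowance. The receptor Npy1r had 8 counts over RFPneg and 1 over RFPpos, and Npy2r had 1 and 2. The amidating enzyme Pam was lower in RFPpos, at 65 and 5 counts (log2 fold change -3.45, SE 0.74, adjusted p = 9.32e-05, edgeR's quasi-likelihood test). Scg5, a chaperone of prohormone convertase, was lower at 30 and 3 counts (log2 fold change -2.86, SE 1.04, adjusted p = 0.0478, edgeR's quasi-likelihood test), a call kept in 8 of 15 alternatives (adjusted p from 3.07e-04 to 0.192) and lost, among others, with DESeq2 and without mouse 1, 2, 3 or 4. The third gene called lower was Pcsk1n, an inhibitor of the convertase, at 44 and 10 counts. Pam, Scg5 and Pcsk1n passed the filter of 15 counts only through their RFPneg counts, so these calls are a description and no test. The processing enzyme Cpe was at 289 ± 21.8 and 252 ± 114 CPM and the granin Scg3 at 196 ± 39.1 and 181 ± 72.8 CPM (SD, n = 5), and neither passed the test.

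Relatives and binding partners of the other genes gave a like picture. Of 23 such genes, 18 were tested, 0 were called higher and 9 lower, with a median log2 fold change of -1.30. Of the S100 family, S100a4 (log2 fold change -5.13, SE 0.69) and S100a11 (-3.12, SE 0.49) were the called genes with the largest change. Both passed the filter for low counts only through RFPneg, so these calls are a description and no test. Sox9, a relative of Sox10 in the same SOXE group, was at 303 ± 79.7 and 184 ± 143 CPM (SD, n = 5) and passed the adjusted p without reaching the fold threshold (log2 fold change -0.93, SE 0.24, adjusted p = 0.00189, edgeR's quasi-likelihood test). In 7 of 16 alternatives, among them DESeq2 and leaving out mouse 3 or 4, Sox9 was called lower (adjusted p over all 16 from 3.34e-13 to 0.379). Ptprz1, the receptor of Ptn, was at 471 ± 129 and 558 ± 279 CPM (SD, n = 5) with a log2 fold change of 0.09 (SE 0.21). Matn4 (0.17, SE 0.37) and the Ptn relative Mdk (-0.20, SE 0.42) did not pass the test either.

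Of 24 genes of neural and glial progenitors, 23 were tested, 0 were called higher and 8 lower, with a median log2 fold change of -0.92. Among the 23, 3 had a log2 fold change above 0, and 15 did not pass the adjusted p. Id1, an inhibitor of differentiation factors, had a log2 fold change of -4.76 (SE 0.39) and the membrane protein Prom1 one of -4.65 (SE 0.54). Id1 and Prom1 also passed the filter for low counts only through RFPneg, so their calls are a description and no test. The nuclear factors Nfib and Nfia, both abundant in glia, had log2 fold changes of -1.30 (SE 0.23) and -0.02 (SE 0.22), of which Nfib was called, except with astrocyte scaling (log2 fold change -1.07, adjusted p = 0.132, edgeR's quasi-likelihood test, from 7.42e-18 to 0.132 over its 16 alternatives).

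Lists for the other cells that a sort of brain could hold were set beside these. Of the 20 astrocyte genes 0 were called higher and 5 lower (median log2 fold change -0.58), among them Slc6a11 (-1.55) and Cldn10 (-1.24), while Glul was at -0.41 and did not pass the test. The list was mixed, with 4 of the 20 above 0 and 12 not passing the adjusted p. Its summed level had a median of 7917 CPM in RFPneg and 8173 CPM in RFPpos, and was higher in RFPpos in 2 of 5 mice. The call of Cldn10 was lost without mouse 1 (log2 fold change -0.99) and with astrocyte scaling. Of 12 oligodendrocyte genes tested 11 were lower (median -3.76), of 7 oligodendrocyte progenitor genes 6 (median -3.29), of 15 genes of neurons and neuroblasts 6 (median -1.94), of 12 endothelial genes 12 (median -4.91), of 9 genes of pericytes, smooth muscle and fibroblasts 8 (median -2.92) and of 5 choroid plexus and ependymal genes 1 (median -1.56), and 0 were called higher in any of these. Of 20 microglia genes 16 were called higher and 0 lower (median 1.30). Of 3 megakaryocyte and platelet genes tested 1, Itgb3, was called higher (log2 fold change 2.17, a call kept in 10 of 15 alternatives and lost, among others, without mouse 1, 2 or 4) and 0 lower (median 0.54), whereas Gp5 and Gp6 had 0 counts in every sample. Sst, which marks a class of interneurons that also holds Npy cells, had 2 counts over RFPneg and 30 over RFPpos, 23 of the latter from mouse 5. It did not pass the test (log2 fold change 3.35, SE 1.24, adjusted p = 0.0537, edgeR's quasi-likelihood test). Sst was the only 1 of the 15 tested genes of its list with a log2 fold change above 0. Other interneuron genes had fewer counts in RFPpos, with 40 and 11 for Gad1, 11 and 2 for Gad2, 12 and 5 for Slc32a1 and 28 and 8 for Nos1. Reln had 5 and 8. Gad2 and Reln had too few counts to be tested, and Gad1, Slc32a1 and Nos1 were tested and not called. In the same list Dlx1, at 37 and 1 counts, was among the 6 called lower (log2 fold change -4.33, SE 1.11). Sst and Itgb3, the latter with 11 counts over RFPneg and 43 over RFPpos, passed the filter for low counts only through RFPpos. Many of the genes called lower passed that filter only through RFPneg. Among them were all 6 oligodendrocyte progenitor genes called, and Opalin, Dlx1, Tek, Kcnj8 and Abcc9. The values of all these genes are a description and no test, and the counts called lower and the medians rest partly on such genes. The part of any of the listed cells in the levels of Npy and Frzb was not tested.

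**Figure D4:**
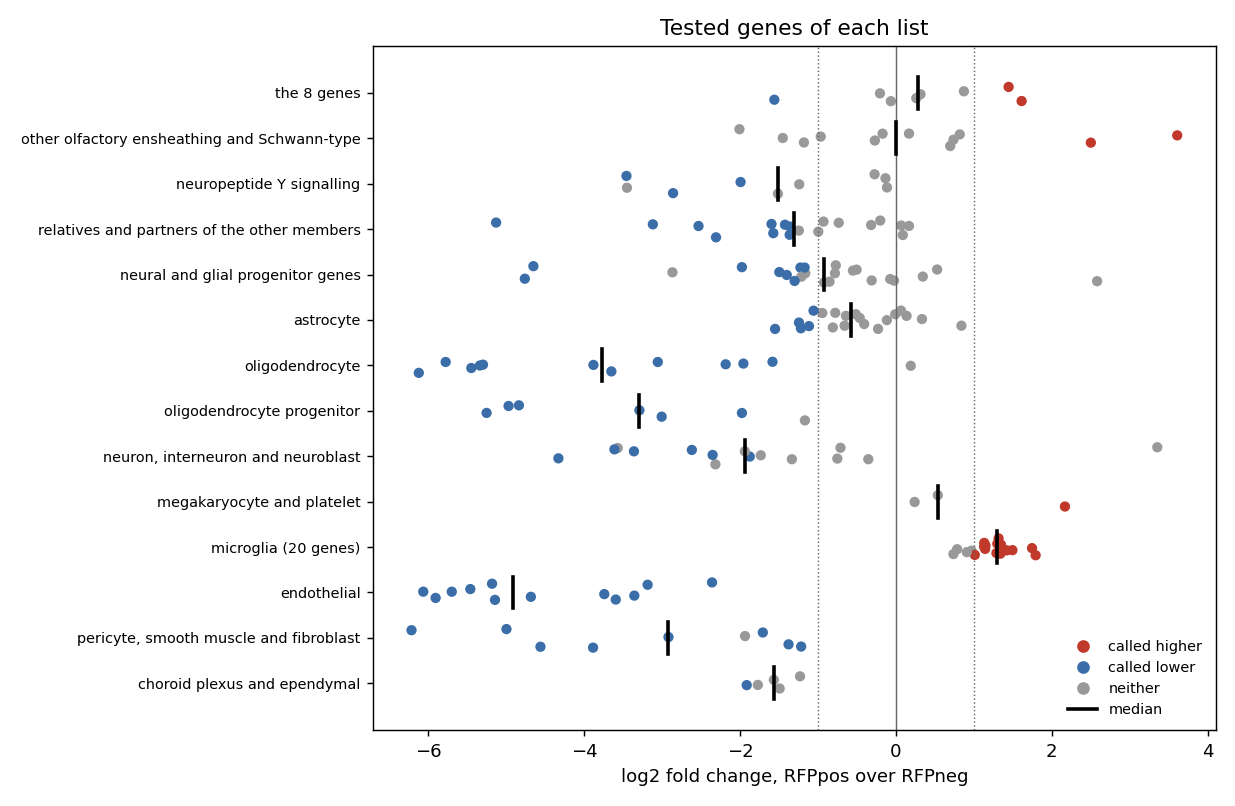
Log2 fold change (RFPpos over RFPneg) of the tested genes of each list, with called genes in red (higher) or blue (lower), the others in grey, and a black bar at the list's median. Red points lie among the 8 genes (Npy and Frzb), the other ensheathing glia genes (Prss56 and Mybpc1), the megakaryocyte list (Itgb3) and the microglia list (16 of 20).

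Variation between mice inside each population does not use the difference that chose the genes. Log2 CPM was taken about the mean of each population, and each gene was correlated with Npy over the 10 samples. Likeness is given as Pearson's r with no p, since the 10 samples share mice, depth and cell mixture. Over 4244 genes with a mean of at least 40 CPM the median r was -0.04 and the 95th percentile 0.77. Fabp7 had an r of 0.94 with Npy and ranked 7th of these genes, Ptn 0.91 and Frzb 0.89, ranks 23 and 37. Apod followed with 0.79, S100b with 0.73, Matn2 with 0.72 and Sox10 with 0.61. By Spearman's rho the order differed, with 0.90 for Frzb, 0.89 for Fabp7 and 0.84 for Ptn. Without mouse 1, r was 0.85 for Fabp7, 0.73 for Apod, 0.69 for Sox10, 0.62 for Frzb, 0.57 for Ptn, 0.46 for S100b and 0.14 for Matn2, against a 95th percentile of 0.68, so that Frzb and Ptn fell below it.

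The 10 genes most like Npy were Matn4 (r = 0.96), Mdk, Cyp2j9, Sash1 and Rgcc (each 0.95), Kcna2 (0.94), Fabp7, Foxd3 (0.93), the water channel Aqp1 (0.93) and the glutamate receptor subunit Gria4 (0.93). Of these, Gria4 was called higher in RFPpos (log2 fold change 1.11, SE 0.35, adjusted p = 0.0157, edgeR's quasi-likelihood test), a call kept in 9 of 16 alternatives (adjusted p from 0.00304 to 0.783) and lost, among others, with DESeq2 and without mouse 2, 4 or 5, and the other 9 were not called. Much of this order rested on mouse 1. Without it, 0 of these 10 genes remained among the top 10, Matn4 fell to 0.46 and Mdk to 0.29, while Gria4 stood at 0.88, rank 25, and Fabp7 took rank 36, Frzb 300 and Ptn 410.

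**Figure D5:**
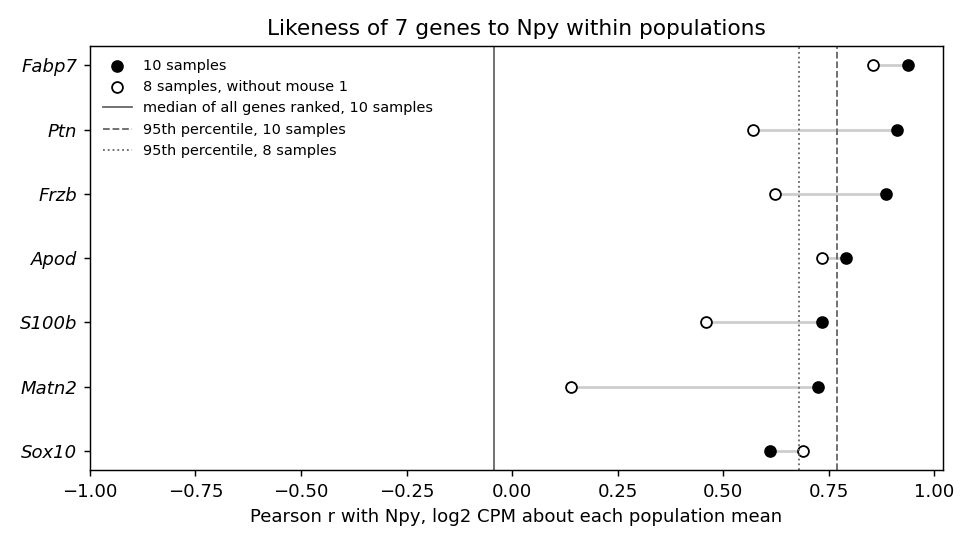
Pearson's r of 7 genes with Npy over samples, from log2 CPM about each population's mean, with all 10 samples (filled) and with the 8 samples of mice 2 to 5 (open); vertical lines mark the median (-0.04) and 95th percentile (0.77) of 4244 genes over 10 samples and the 95th percentile over 8 samples (0.68, dotted). Fabp7 lies at 0.94 and 0.85, and Matn2 and Ptn lose most without mouse 1.

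The 8 genes were also correlated with each other. No value over pairs of other genes stands beside these r, so nothing is read from them about the 8 genes. Over their 28 pairs r ran from 0.51 to 0.95 with a median of 0.82, highest between Frzb and Apod. Without mouse 1 it ran from 0.04 to 0.85 with a median of 0.52, and all 28 pairs stayed above 0. The pair of Npy and Fabp7 was then the highest, and Npy and Sox10 stood at 0.69, although these genes differed in opposite directions between the populations.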

How the data were processed

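Bulk 3′ RNA sequencing (QuantSeq FWD) was analysed for 10 samples. The deposited values are whole counts of reads per gene, made by the authors with the Lexogen QuantSeq FWD UMI pipeline on the BlueBee platform, and the build in the submitters' processing notes is mm10. The aligner's settings and the gene annotation are not given in the sources used here. Symbols were found for 47224 of 47643 gene identifiers in the table. Reads on no gene, 32.05 to 37.21% of a sample in RFPneg and 38.4 to 48.64% in RFPpos, were left out of library sizes. Single-cell samples were not analysed here.

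From the counts, genes with at least 15 counts over the 10 samples were tested with edgeR 4.0.16 in R 4.3.3 (TMM, glmQLFit, glmQLFTest, mouse as a block), with Benjamini-Hochberg adjustment over the 11103 genes. Genes were called at an adjusted p below 0.05 and a log2 fold change beyond 1, and the SE is the log2 fold change divided by the square root of F. CPM used TMM-scaled library sizes, and log2 CPM a prior count of 2. The fit was tested on simulated data. These were drawn without a mouse effect and with the spread typical of each gene's level, so genes that vary more between mice were not covered. Same-numbered samples are pairs because they come from the same mouse. The correlations of their deviations from the population means were 0.11, -0.00, 0.05, 0.00 and 0.01. The p-values and SEs rest on a spread that edgeR moderates over all genes. They do not measure each gene's own spread between these 5 mice, and for some genes they understate it. For Fabp7 the log2 differences of the 5 mice had an SD of 1.57, beside an SE of 0.23. For Apod the SD was 1.55 and the SE 0.21, and for Serpine2 0.16 and 0.20.

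The 8 genes and all gene lists were chosen with earlier results of these data known. Beside the 8, the text names the 10 genes most like Npy, and from each list the 2 genes with the highest mean CPM and the 2 called genes with the largest change, as far as a statement needed them, and the receptors and ligands that were counted. Genes named outside that rule (Foxd3 in its list, Pcsk1n, Ngfr, Sst, Gad1, Gad2, Slc32a1, Nos1, Reln and genes with 0 counts) were picked after their values were seen. Alternatives were other scalings, filters and tests (DESeq2 1.42.0), thinning to 177287 counts, no replicate block, and leaving out each mouse. Positions come from GENCODE M21 and upstream sequence from RefSeq (GRCm38.p6).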

Additional observations from a re-analysis of the deposited data

Results flagged for a closer look

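In the RFPneg population, the Ptn level of mouse 1 was 192.5 CPM, whereas the other 4 mice lay between 351 and 397 CPM. The gap between mouse 1 and the nearest other mouse took up 0.774 of the whole range, above the critical value of 0.71 in Dixon's test for 5 samples. The value rested on 35 counts. On the CPM scale it was the only such value among 16 groups examined (8 genes in 2 populations). On the log2 CPM scale, examined after the CPM scale, 5 of the 16 groups passed the critical value, namely Ptn in RFPneg again (0.828) and the RFPpos population of Npy (0.842), Fabp7 (0.845), Apod (0.816) and Frzb (0.75), with mouse 1 as the lowest sample in each. Chance flags about 1 in 20 groups.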

How the results depend on the processing

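The log2 fold changes of Npy and Frzb were above 0 under all 16 alternatives and above 1 in 15. The exception was scaling to the 20 microglia genes, where the log2 fold change was 0.38 for Npy and 0.20 for Frzb. That scaling moved the median of all genes from -0.10 to -1.30. Relative to the median of all genes, Npy stood 1.71 higher in the reported fit and 1.67 higher under microglia scaling, and Frzb 1.54 and 1.49. Scaling to the 20 astrocyte genes, added after seeing the data, moved the median to 0.25 and gave 1.86 for Npy and 1.67 for Frzb. With no replicate block, so without the pairing by mouse, Npy stood at 1.61 and the calls over all genes at 393 higher and 859 lower. Leaving out each mouse gave 1.46 to 1.72 for Npy, 1.23 to 1.72 for Frzb, -0.21 to 0.56 for Fabp7, -0.31 to 0.42 for Apod, -0.51 to 0.22 for S100b, -0.05 to 0.64 for Ptn and -1.91 to -1.25 for Sox10, which did not meet the rule for a call without mouse 2 and with astrocyte scaling.

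The count of genes called higher (376) was 216 with DESeq2, which gave no adjusted p for 1292 genes, 242 with filterByExpr, which tested 4210 genes, 577 with no fold change threshold and 6 with microglia scaling. The count called lower (824) was 385 with filterByExpr, 426 with astrocyte scaling and 5291 with microglia scaling. In the lists of related genes and other cells, 19 were called higher and 69 lower, against 44 lower with filterByExpr, 40 lower with astrocyte scaling, and 0 higher and 117 lower with microglia scaling. Microglia scaling also turned the sign of Lgi4 (-1.06), Ptprz1 (-1.16), Trf (-1.04), Cx3cr1 (-0.21), Matn4 (-1.06), Kcna2 (-1.07) and Gria4 (-0.12), of Foxd3 (-0.47), Aqp1 (-0.38) and Serpine2 (-0.41), and, among the 8 genes, of Fabp7 (-0.98), Ptn (-0.95) and Matn2 (-0.25), while Apod (-1.31) and S100b (-1.45) fell below -1. Matn2 fell under the filter with filterByExpr, after thinning and without mouse 3. Matn2, Prss56 and the Npy receptors had at most 25 counts each over the 10 samples, which limits what can be said of them.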
